A study of Mus musculus with 6 samples.

Results

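The cell cycle and replication genes of the intestinal crypt were examined in ileal mucosa of mice that lack the Duox maturation factors. The group was chosen with earlier results of these data known. It holds 36 genes named for their part in copying DNA and dividing the cell. Of these, 35 were measured among the 18193 genes of the array, each through its brightest probe set by mean. Ccnb1, which encodes cyclin B1, had no probe set under its symbol alone and was not analysed here. By role, 10 measured genes load or form the replicative helicase, 5 supply DNA synthesis, 2 encode cyclin E and 18 act in mitosis.

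RNA came from Duoxa-/- mice and from wt littermates housed in the same cages, all 3-month-old females on the 129S6 background. DUOXA proteins are maturation factors that the dual oxidases need to reach the plasma membrane, and these enzymes make hydrogen peroxide there. The labels do not describe the allele further, and no treatment is given. There were 3 Duoxa-/- pools and 3 wt pools, 1 of each genotype from each of 3 cages, which are 3 litters, and each pool combined RNA of 2 to 3 animals on 1 Affymetrix array. Pools average their animals, so p-values here measure the spread between 3 pools per genotype. Values are log2 probe set summaries deposited by the authors, a difference of 1 is a doubling, and differences are Duoxa-/- minus wt.

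A dividing cell must copy its genome once and then part the copies. In late mitosis and G1, CDC6 and CDT1 load the MCM2-7 helicase onto origins, a step called licensing, and the GINS complex later helps to start it. Genes for these proteins are classic targets of E2F transcription factors, whereas many mitotic genes are controlled later in the cycle through a promoter element called the cell cycle homology region, CHR, often beside boxes bound by NF-Y. In the small intestine, stem cells and their rapidly dividing daughters sit in the crypts, and the absorptive enterocytes that cover the villi have left the cycle. In bulk mucosa, fewer cells of a type and less RNA per cell cannot be told apart.

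The targeted locus and the tissue were read first. Duoxa2 read 5.90, 5.55 and 5.92 in the Duoxa-/- pools of cages 1, 2 and 3, against 8.81, 8.36 and 7.24 in the wt pools, a difference of -2.34 (limma adjusted p = 0.760), with no overlap. Duoxa1 averaged 6.16 ± 0.21 in Duoxa-/- and 6.31 ± 0.09 in wt pools (SD, n = 3 each), both under the median of all probe sets, 6.58. Where these probe sets lie relative to the deleted part is not stated by the labels. The ileal markers Fabp6, a bile acid binding protein, at 14.72 in Duoxa-/- and 14.72 in wt, and Slc10a2, the apical bile acid transporter, at 12.37 and 12.33 in the same order, were far above that median. All arrays correlated with each other between 0.994 and 0.998, and both the mean correlation (0.994) and limma's array quality weight (0.548) were lowest for the wt pool of cage 1.

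Promoters of the licensing and the mitotic genes carried different elements, a feature that the choice of genes did not use. RefSeq windows of build GRCm38.p6, from 250 bases before to 50 after the annotated start, were available for 28 of the 36 genes; Mcm4, Gins1, Gins2, Ccne2, Ccna2, Aurkb, Kif20a and Tpx2 had none in the table used. Both strands were searched for E2F sites (TTTCCCGC, TTTCGCGC, TTTGCCGC or TTTGGCGC), for the CHR (TTTGAA or TTCGAA) and for the NF-Y box (CCAAT). An E2F site stood in 6 of 7 licensing windows (85.7%), 1 of 15 mitotic windows (6.67%) and 0 of 5 DNA synthesis windows, against 510 of 17491 windows of protein-coding genes (2.92%). A CHR stood in 11 of 15 mitotic windows (73.3%), 2 of 7 licensing windows (28.6%) and 0 of 5 DNA synthesis windows, against 18.2% of protein-coding genes. An NF-Y box was frequent in all of these roles, in 12 of 15 mitotic (80.0%), 5 of 7 licensing (71.4%) and 3 of 5 DNA synthesis windows (60.0%), against 39.0%. CHR and NF-Y box occurred together in 11 mitotic windows and in 7.43% of protein-coding windows. A match describes letters in the window and is not a measured binding site. A window without a match lacks only the exact forms searched. Other forms, and sites outside the window, were not searched, so it does not show that a gene escapes that control.

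**Figure D1:**
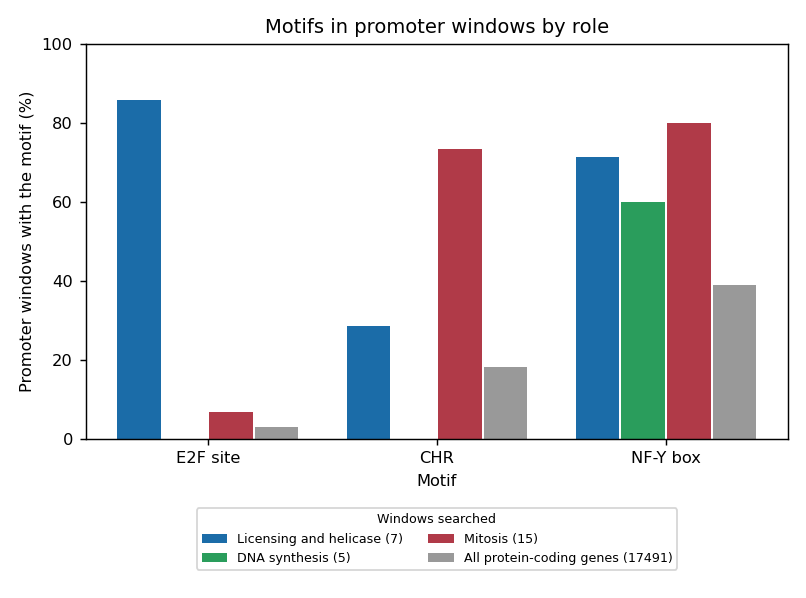
Share of promoter windows, in percent, that hold an E2F site, a CHR or an NF-Y box, by role of the gene (coloured bars) and for all protein-coding genes (grey bars). E2F sites are in 85.7% of licensing windows and CHR elements in 73.3% of mitotic windows, while NF-Y boxes are common in both.

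The 200 bases before the annotated start are shown for 5 genes, to set a licensing layout beside a mitotic one, with the matched letters of all 3 elements in capitals and all letters read along the gene's own strand from 5′ to 3′. Cdc6 and Mcm6 show the E2F type, Cdk1 and Kif11 the mitotic type, and Rrm2, the gene with the largest genotype difference below, has a lone NF-Y box.
Cdc6 (chr11:98907951-98908150, plus strand): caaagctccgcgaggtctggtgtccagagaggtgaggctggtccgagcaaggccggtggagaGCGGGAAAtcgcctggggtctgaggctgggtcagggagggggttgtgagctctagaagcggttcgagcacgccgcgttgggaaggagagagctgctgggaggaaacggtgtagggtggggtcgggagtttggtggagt
Mcm6 (chr1:128359706-128359905, minus strand): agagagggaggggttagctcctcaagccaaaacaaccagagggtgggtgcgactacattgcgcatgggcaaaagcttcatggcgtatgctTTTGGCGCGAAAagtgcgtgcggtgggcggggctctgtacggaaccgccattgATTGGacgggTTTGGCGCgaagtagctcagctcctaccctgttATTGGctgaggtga
Cdk1 (chr10:69352913-69353112, minus strand): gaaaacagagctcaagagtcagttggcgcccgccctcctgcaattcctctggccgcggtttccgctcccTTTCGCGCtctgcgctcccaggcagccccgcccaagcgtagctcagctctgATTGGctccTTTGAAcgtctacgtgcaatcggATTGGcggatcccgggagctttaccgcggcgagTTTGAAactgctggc
Kif11 (chr19:37376182-37376381, plus strand): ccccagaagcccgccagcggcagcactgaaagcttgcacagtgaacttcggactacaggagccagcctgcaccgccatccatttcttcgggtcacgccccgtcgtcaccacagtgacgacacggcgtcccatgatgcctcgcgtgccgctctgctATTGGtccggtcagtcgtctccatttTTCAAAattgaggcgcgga
Rrm2 (chr12:24708054-24708253, plus strand): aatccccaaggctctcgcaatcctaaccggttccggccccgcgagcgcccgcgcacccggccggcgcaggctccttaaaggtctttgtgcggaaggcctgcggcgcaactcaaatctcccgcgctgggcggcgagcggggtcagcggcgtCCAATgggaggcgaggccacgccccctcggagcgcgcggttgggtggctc
In Cdc6 the E2F site lies on the opposite strand with its first printed base at -138, counted from -1 just before the start. Mcm6 has 2 E2F sites that overlap each other at -110 and -106 and another at -47, and NF-Y boxes at -57 and -14. Cdk1 is the mitotic gene with an E2F site, at -131, and has a CHR at -71 and at -15. Kif11 has an NF-Y box at -45 and a CHR at -19, both on the opposite strand.

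Cell cycle and replication genes read slightly higher in Duoxa-/- than in wt mucosa, and no single gene passed the test. The mean was higher in Duoxa-/- for 33 of 35 genes, against 46.1% of all genes on the array, and the median difference was 0.15 (1.11-fold), against -0.01 over all genes. Differences ran from -0.01 for Nusap1 to 0.39 for Rrm2 (1.31-fold), with a median SE of 0.12. The limma test called 0 of the 35 genes and 0 of 18193 genes (0.0%), of which 1006 had an unadjusted p under 0.05, and the smallest adjusted p among the 35 was 0.811. At an unadjusted limma p under 0.05, 1 of the 35 stood out, Cdc6 (2.86%), where 1.87% of all genes were higher at that level. With cage as a block, limma again called 0 genes, and 6 of the 35 (17.1%) had an unadjusted p under 0.05, all higher in Duoxa-/-, against 2.18% of all genes. These were Cdc6, Gins1, Rrm2, Aurka, Bub1 and Mad2l1.

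The size of the difference rested on cage 1. Taken within cages 1, 2 and 3, the median difference amounted to 0.34, 0.10 and 0.06, with 35, 22 and 24 of the 35 genes higher in Duoxa-/-. In all 3 cages, 15 of 35 genes (42.9%) were higher in Duoxa-/-, against 13.5% of all genes. All 3 Duoxa-/- pools stood above all 3 wt pools in 0 of the 35 genes, while this held for 5.08% of all genes. Without cage 1 the median difference was 0.057, with 25 of 35 genes higher, and it was 0.22 without cage 2 and 0.23 without cage 3. Leaving out single pools moved it to 0.079 without the wt pool of cage 1, to 0.26 without the Duoxa-/- pool of cage 3 and to 0.28 without the wt pool of cage 2. None of the 35 genes passed in any of these fits.

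**Figure D2:**
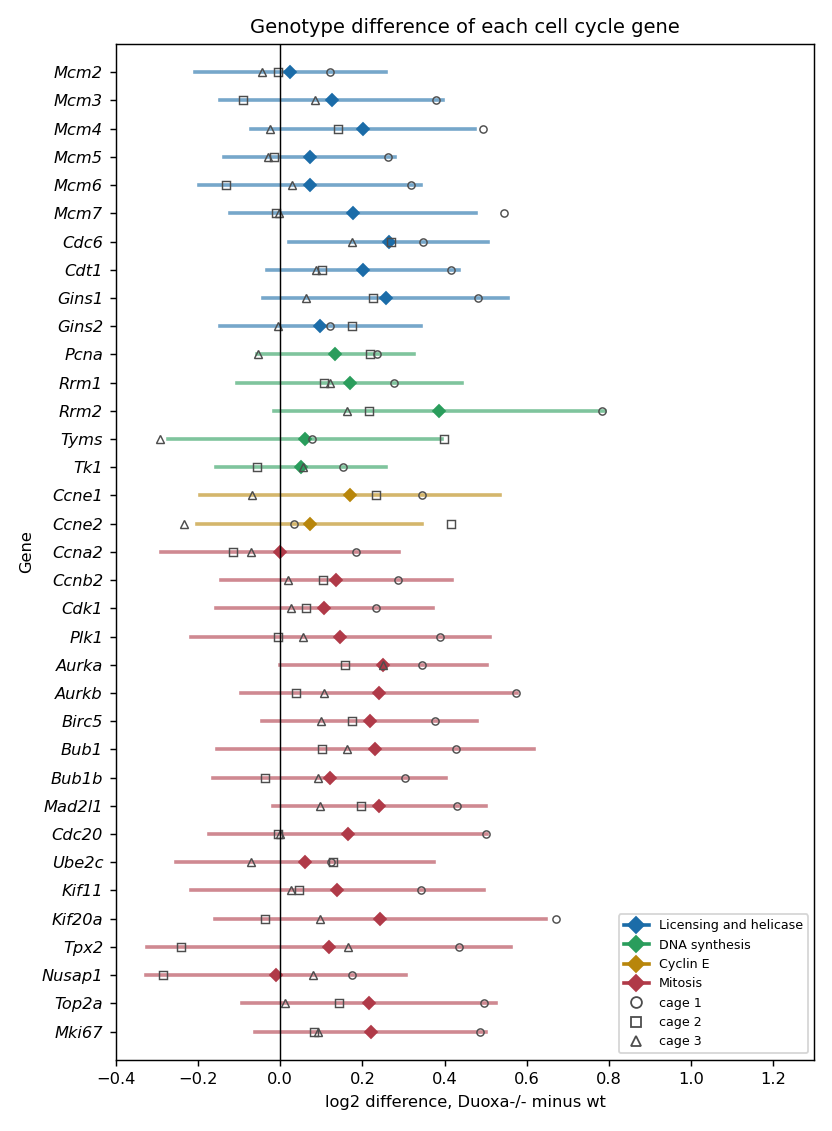
Difference of each gene in log2 units, Duoxa-/- minus wt, with limma's 95% confidence interval as a bar, the mean difference as a diamond coloured by role, and the difference within cage 1, 2 and 3 as a circle, a square and a triangle. Nearly all diamonds lie right of 0, only the interval of Cdc6 excludes 0 in this fit without cage, and the circles of cage 1 lie farther right than the squares and triangles for most genes.

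All 10 genes of licensing and the helicase had a higher mean in Duoxa-/-, with a median difference of 0.15 and cage medians of 0.36, 0.05 and 0.01. Cdc6, the loader of the MCM helicase, read 7.54, 7.60 and 7.29 in the Duoxa-/- pools of cages 1, 2 and 3, against 7.19, 7.33 and 7.11 in the wt pools. The Duoxa-/- pool of cage 3 lay below the wt pool of cage 2, so the groups overlapped, although Duoxa-/- was higher within each cage. The difference was 0.26 (1.20-fold, 95% interval 0.02 to 0.51, limma adjusted p = 0.811), and in this fit, without cage, Cdc6 was the only one of the 35 genes whose interval excluded 0. With cage as a block, Gins1, Rrm2, Aurka, Bub1 and Mad2l1 had an unadjusted p under 0.05 as well. Gins1, a subunit of the GINS complex that joins the helicase at the start of synthesis, read 8.39, 8.49 and 8.10 in Duoxa-/- pools, against 7.90, 8.26 and 8.03 in wt pools. Its difference was 0.26 ± 0.13 (SE), and the wt pool of cage 1 was the lowest. Cdt1, the partner of CDC6 in loading, read 10.77, 10.77 and 10.60 in Duoxa-/- pools, against 10.35, 10.67 and 10.51 in wt pools. It was higher in Duoxa-/- within each cage by 0.42, 0.10 and 0.09, and the groups overlapped. Gins2, another GINS subunit, differed by 0.10 ± 0.11 (SE).

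Genes of the MCM2-7 ring, 6 paralogous ATPases that unwind DNA, had small differences, largest in cage 1. All 6 were higher in Duoxa-/- on average, by 0.02 for Mcm2 to 0.20 for Mcm4, yet 0 of the 6 were higher in all 3 cages. Within cages 1, 2 and 3 their median differences were 0.35, -0.01 and -0.01. Mcm4 read 10.71, 10.71 and 10.46 in Duoxa-/- pools, against 10.21, 10.58 and 10.48 in wt pools. Mcm7 read 11.74, 11.62 and 11.41 in Duoxa-/- pools, against 11.19, 11.63 and 11.42 in wt pools. For both genes the wt pool of cage 1 was the lowest of the 6 and the other wt pools lay among the Duoxa-/- pools. The Duoxa-/- pool of cage 1 was the highest of the 6 in 5 of the 6 ring genes, against 12.8% of all genes. Without cage 1, the differences of Mcm2, Mcm3, Mcm5, Mcm6 and Mcm7 were below 0, from -0.051 to -0.0025.

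The 5 genes of DNA synthesis were all higher on average in Duoxa-/-, with a median of 0.13 and cage medians of 0.24, 0.22 and 0.06. Rrm2 encodes the small subunit of ribonucleotide reductase, which makes deoxyribonucleotides and is present mainly in S phase. It read 10.00, 10.01 and 9.54 in Duoxa-/- pools, against 9.22, 9.80 and 9.38 in wt pools. Within cages the difference was 0.78, 0.22 and 0.16, and over all pools 0.39 ± 0.18 (SE, limma adjusted p = 0.811), with a 95% interval of -0.02 to 0.79. Rrm1, the large subunit, read 10.08, 10.17 and 9.85 in Duoxa-/- pools, against 9.80, 10.06 and 9.73 in wt pools, a difference of 0.17 ± 0.12 (SE). Both subunits were higher in Duoxa-/- in each cage, and both had their highest value in the Duoxa-/- pool of cage 2.

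Pcna, the sliding clamp that holds polymerases on DNA, read 12.74, 12.77 and 12.62 in Duoxa-/- pools, against 12.51, 12.55 and 12.68 in wt pools. It was higher in Duoxa-/- in cages 1 and 2 by 0.24 and 0.22, and in cage 3 it differed by -0.05. Tk1, the thymidine salvage kinase, read 8.91, 8.97 and 8.96 in Duoxa-/- pools, against 8.75, 9.03 and 8.91 in wt pools, and differed by 0.05 ± 0.09 (SE). Tyms, thymidylate synthase, was the only gene of the group below the median of all probe sets, with means of 4.69 in Duoxa-/- and 4.63 in wt, so its difference of 0.06 describes a dim probe set.

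The cyclin E genes, whose products activate CDK2 at the entry into S phase, were both slightly higher on average in Duoxa-/-. Ccne1 read 8.16, 8.52 and 7.99 in Duoxa-/- pools, against 7.81, 8.28 and 8.06 in wt pools, a difference of 0.17 ± 0.16 (SE). Ccne2 read 8.62, 8.84 and 8.42 in Duoxa-/- pools, against 8.58, 8.42 and 8.65 in wt pools, a difference of 0.07 ± 0.12 (SE). Both were higher in Duoxa-/- in cages 1 and 2 and lower in cage 3, and in both the highest of the 6 values was the Duoxa-/- pool of cage 2.

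Among the 18 mitotic genes, 16 were higher on average in Duoxa-/-, with a median of 0.16, cage medians of 0.38, 0.05 and 0.09, and 10 genes higher in all 3 cages. Aurka encodes Aurora A, the kinase of spindle poles. It read 8.25, 8.37 and 8.14 in Duoxa-/- pools, against 7.90, 8.21 and 7.89 in wt pools, with within-cage differences of 0.34, 0.16 and 0.25. Aurka was higher in Duoxa-/- in each cage, and by 0.25 ± 0.11 over the 3 cages (SE, limma adjusted p = 0.811). Mad2l1, a spindle checkpoint protein that holds back anaphase, read 10.74, 10.82 and 10.52 in Duoxa-/- pools, against 10.31, 10.62 and 10.42 in wt pools. Birc5, survivin, a subunit of the chromosomal passenger complex, read 10.40, 10.52 and 10.21 in Duoxa-/- pools, against 10.02, 10.34 and 10.11 in wt pools. Both were higher in Duoxa-/- in every cage, by means of 0.24 and 0.22, and both overlapped between groups because the Duoxa-/- pool of cage 3 lay below the wt pool of cage 2.

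Mki67, the standard marker of cycling cells, read 11.44, 11.43 and 11.17 in Duoxa-/- pools, against 10.95, 11.34 and 11.07 in wt pools. It was higher in Duoxa-/- by 0.49, 0.08 and 0.09 within cages and by 0.22 ± 0.12 over all pools (SE, limma adjusted p = 0.811). Top2a, which untangles sister chromosomes, differed by 0.22, and Aurkb, the kinase of the passenger complex, by 0.24, both with their largest difference in cage 1 (0.50 and 0.57). Kif20a, a kinesin of the late spindle, differed by 0.24 and Cdc20, an activator of the anaphase-promoting complex, by 0.17, yet in cage 2 they differed by -0.04 and -0.01. Cdk1, the mitotic kinase, and Ccnb2, a cyclin partner of it, differed by 0.11 and 0.14, and the checkpoint kinase relative Bub1b by 0.12. Nusap1, a spindle microtubule protein, and Ccna2, cyclin A2 of S phase and G2, did not have higher means in Duoxa-/- through the probe sets used. Ccna2 averaged 10.51 ± 0.19 in Duoxa-/- and 10.51 ± 0.18 in wt pools (SD, n = 3 each). The other probe set of Ccna2 was higher in Duoxa-/- by 0.16, and that of Nusap1, under the median of all probe sets, by 0.22.

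**Figure D3:**
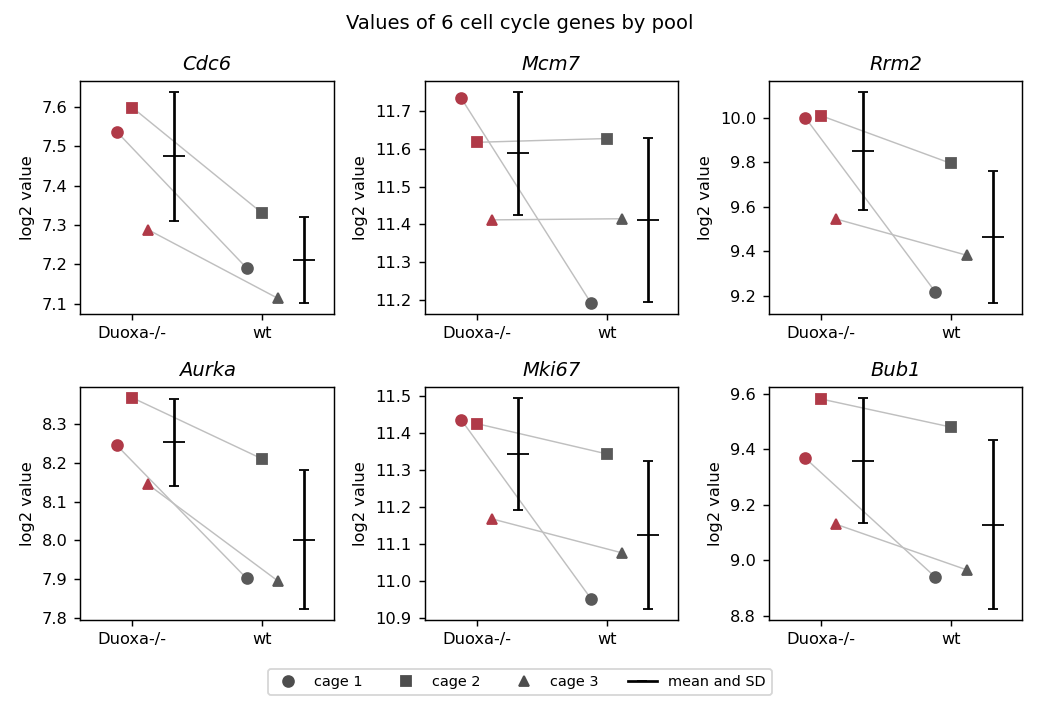
Log2 level in each pool of 6 genes from the different roles, Duoxa-/- pools left of wt pools, with each cage marked by its own symbol, the pools of 1 cage joined by a line, and the mean and SD of 3 pools as a bar beside each group. The lines of cage 1 are the steepest for most genes, and the pool of cage 3 is the lowest Duoxa-/- pool in each. Among the wt pools the lowest is that of cage 1 for Mcm7, Rrm2, Mki67 and Bub1 and that of cage 3 for Cdc6 and Aurka.

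The licensing genes and the mitotic genes did not differ from each other in their genotype difference beyond the spread over cages. For each pool, every gene was centred on its mean over the 6 pools and then averaged over its role. The licensing average was 0.17, 0.15 and -0.09 in the Duoxa-/- pools of cages 1, 2 and 3, against -0.18, 0.08 and -0.12 in the wt pools. The mitotic average was 0.13, 0.21 and -0.10 in Duoxa-/- pools, against -0.25, 0.18 and -0.17 in wt pools. Both roles were high in cage 2, low in cage 3 in both genotypes and lowest in the wt pool of cage 1. Licensing minus mitotic differed between genotypes by -0.0088, with a SD of 0.040 over cages, and its sign turned in several alternative fits, from -0.063 without the wt pool of cage 2 to 0.028 with the probe set of largest variance per gene. Mitotic genes spanned more, 0.46 over the 6 pools against 0.35 for licensing genes. Genes with and without an E2F site had median differences of 0.13 and 0.16, and those with and without a CHR 0.15 and 0.15.

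The pools showed a common order across the genes. The Duoxa-/- pool of cage 2 was the highest of the 6 in 20 of 35 genes, against 16.2% of all genes, and the wt pool of cage 2 was the highest in 8, against 22.7%. The wt pool of cage 1 was the lowest in 20 genes, against 26.8%, and the wt pool of cage 3 in 10, against 13.0%. These counts describe a pattern chosen after the values were seen.

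**Figure D4:**
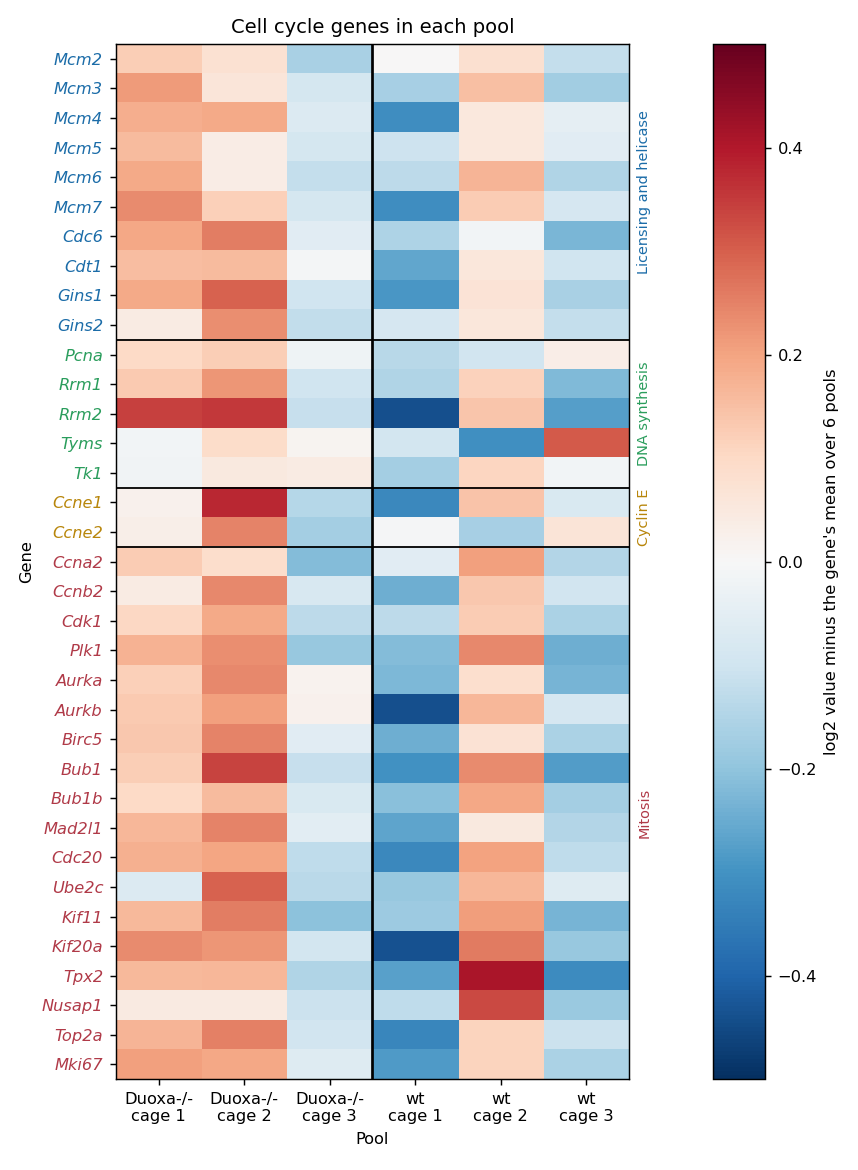
Log2 level of each of the 35 genes in each of the 6 pools, centred on the gene's mean over the pools, with Duoxa-/- pools left of wt pools and genes ordered by role. Columns of cage 2 are mostly above and columns of cage 3 mostly below the gene's mean in both genotypes, and the wt pool of cage 1 is the lowest in 20 of 35 genes.

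No gene of the 35 passed a test between litters. The moderated F-test of limma over the 3 cages, with genotype in the fit, called 0 of the 35 genes and 2 of 18193 genes (0.011%), and the smallest adjusted p among the 35 was 0.651. At an unadjusted F-test p under 0.05 stood 7 of the 35 genes (20.0%), against 6.21% of all genes. Of these, 5 were mitotic, namely Bub1, Kif11, Ube2c, Plk1 and Tpx2, and the others were Ccne1 and Rrm1. Cage accounted for a median of 46.8% of the variance over the 6 pools in the 35 genes, 65.8% in the mitotic and 40.2% in the licensing genes, against 38.5% over all genes. Genotype accounted for a median of 17.1%, against 15.8% over all genes. Cage has more levels than genotype and takes a larger share without any effect, so the shares are read only against all genes.

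Both pools of cage 3 lay below both pools of cage 2 in 32 of 35 genes (91.4%), against 24.6% of all genes, a pattern chosen after the values were seen. This held for all 10 licensing and all 18 mitotic genes. The median difference was 0.27 for cage 2 minus cage 3, the widest of the cage contrasts. It was 0.20 for cage 2 minus cage 1 and -0.07 for cage 3 minus cage 1. Bub1, a kinase of the spindle checkpoint, read 9.37, 9.58 and 9.13 in the Duoxa-/- pools of cages 1, 2 and 3, against 8.94, 9.48 and 8.97 in the wt pools. Both cage 2 pools were the highest, and cage 2 minus cage 3 was 0.48 (limma F-test adjusted p = 0.651). Kif11, the kinesin that pushes spindle poles apart, read 8.60, 8.69 and 8.23 in Duoxa-/- pools, against 8.25, 8.65 and 8.20 in wt pools, with cage 2 minus cage 3 at 0.45. Plk1, a kinase of mitotic entry and spindle assembly, read 9.30, 9.36 and 8.94 in Duoxa-/- pools, against 8.91, 9.36 and 8.88 in wt pools. In Plk1 and Kif11 the genotypes differed by 0.06 or less within cages 2 and 3, while in cage 1 Duoxa-/- read higher by 0.39 and 0.34. Ube2c, the ubiquitin-conjugating enzyme of the anaphase-promoting complex, read 10.57, 10.93 and 10.50 in Duoxa-/- pools, against 10.45, 10.80 and 10.57 in wt pools. Both Ube2c pools of cage 2 stood above the other 4. Tpx2, a spindle assembly factor, had a difference of 0.52 between cage 2 and cage 3, the widest of the 35 genes.

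Other genes of the same pathways, from lists that do not overlap the 35, were read from the same fit, and limma called 0 of them in any list. Among 18 further origin and helicase genes, 16 were higher in Duoxa-/- with a median of 0.16, and 2 were higher at an unadjusted p under 0.05, beside 1.87% of all genes. Within cages 1, 2 and 3 their median differences were 0.30, 0.17 and 0.08, again largest in cage 1. Mcm8, a helicase relative that acts in recombination, read 6.45, 6.46 and 6.34 in Duoxa-/- pools, against 6.02, 6.25 and 6.09 in wt pools, with no overlap, at a level just under the median of all probe sets. Cdc7, the kinase that fires licensed origins, was higher by 0.35 ± 0.14 (SE), and Gmnn, geminin, the inhibitor of CDT1, by 0.22 ± 0.10 (SE). Among 27 replication fork genes, 25 were higher with a median of 0.19, and 4 were higher at that level. Their median differences within cages 1, 2 and 3 were 0.40, 0.08 and 0.04, so this list, too, rested mostly on cage 1. Tipin, of the fork protection complex, was higher by 0.28, Fen1, the flap endonuclease, by 0.26, and Rfc3, of the clamp loader, by 0.25. Fen1 read 10.75, 10.90 and 10.62 in Duoxa-/- pools, against 10.38, 10.60 and 10.51 in wt pools, so that the lowest Duoxa-/- pool was still above the highest wt pool. All 3 Duoxa-/- pools stood above all 3 wt pools in 6 of these 27 genes, beside the 5.08% of all genes given above.

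Among 58 other mitotic genes, 48 were higher in Duoxa-/- with a median of 0.13, and 4 were higher at an unadjusted p under 0.05, beside 1.87% of all genes. Within cages 1, 2 and 3 their median differences were 0.31, 0.03 and 0.06, again largest in cage 1. Hmgb2, a chromatin protein of dividing cells, was higher by 0.24, and the kinetochore genes Cenph and Nuf2 by 0.33 and 0.20. In this list 15 of 58 genes had an unadjusted cage p under 0.05, beside the 6.21% of all genes. G1-S control, with 15 of 23 genes higher and a median of 0.07, stood closer to the background, and E2f3, a transcription factor of the E2F family, Skp2, which targets p27 for degradation, and Cdc25a, a phosphatase that activates CDKs, were higher by 0.23, 0.28 and 0.14. Subunits and regulators of the anaphase-promoting complex had a median of 0.04 with 10 of 15 higher, beside 46.1% of all genes. At an unadjusted p under 0.05, 1 of them was higher and 1 lower, beside 1.87% and 3.66% of all genes. Within that list the inhibitor Fbxo5 was higher by 0.32 and the core subunits Anapc2 and Anapc11 differed by -0.22 and -0.19.

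Of 14 CDK inhibitors and p53 targets, 5 were higher in Duoxa-/- (35.7%), near the 46.1% of all genes, with a median of -0.11 and a mean of -0.04. At an unadjusted p under 0.05, 1 of the 14 was lower, beside 3.66% of all genes. Cdkn1a, the inhibitor p21, which is high in differentiating villus cells, read 12.07, 11.87 and 11.95 in Duoxa-/- pools, against 12.27, 12.19 and 12.06 in wt pools. It was lower in Duoxa-/- in each cage and differed by -0.21 ± 0.09 over all pools (SE, limma adjusted p = 0.811), although the Duoxa-/- pool of cage 1 lay just above the wt pool of cage 3. Sesn2, a stress-responsive p53 target, and Cdkn2d, the inhibitor p19, differed by -0.17 and -0.13. The widest differences in the list were upward, 0.34 ± 0.29 for Btg2, an antiproliferative p53 target, and 0.27 ± 0.19 for Cdkn2a, the p16 and p19ARF locus (SE), both named after their values were seen. Of 8 genes of quiescence and exit from the cycle, 4 were higher, and Ndrg2, a gene of differentiated cells, differed by -0.20.

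Marker lists of crypt and villus cells were set beside the cell cycle genes, and their part in the result was not tested. Intestinal stem cell markers were higher in Duoxa-/- in 5 of 10 genes with a median of 0.01, and their average lay between -0.06 and 0.05 over the 6 pools. Lgr5, the defining stem cell receptor, averaged 9.09 ± 0.19 in Duoxa-/- and 9.13 ± 0.14 in wt pools (SD, n = 3 each). Enterocyte markers were higher in 1 of 12 genes, with an average of -0.12, -0.27 and 0.12 in the Duoxa-/- pools of cages 1, 2 and 3, against 0.20, -0.01 and 0.09 in the wt pools. Their median difference was -0.08 and their mean difference -0.19, so a few markers with wide differences weighed on the averages. Differences ran from -0.64 for Treh to 0.04 for Slc10a2, and the bright markers Fabp2 and Apoa1 differed by -0.09 and -0.07. The pool with the highest cell cycle average, Duoxa-/- of cage 2, had the lowest enterocyte average, and the pool with the lowest cell cycle average, wt of cage 1, had the highest. This pairing was chosen after the values were seen. Anpep, an enterocyte peptidase, averaged 12.10 ± 0.07 in Duoxa-/- and 12.46 ± 0.28 in wt pools (SD, n = 3 each), and no enterocyte marker passed the test.

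Markers of other tissue layers and of lymphocytes also differed between pools. The smooth muscle average was -0.34, 0.10 and -0.08 in Duoxa-/- pools, against 0.45, -0.16 and 0.03 in wt pools, and 1 of 10 genes was higher in Duoxa-/-. B cell markers averaged 0.21, 0.03 and 0.01 in Duoxa-/- pools, against -0.31, 0.01 and 0.05 in wt pools, with 6 of 8 genes higher. T cell markers averaged 0.21, -0.21 and -0.23 in Duoxa-/- pools, against -0.33, 0.46 and 0.10 in wt pools, with 1 of 10 higher. The wt pool of cage 1, lowest for the cell cycle genes, was thus the highest for smooth muscle and the lowest for B and T cell markers. That pattern, too, was chosen after the values were seen. Germinal centre B cell markers, of lymphocytes that themselves divide, averaged 0.15, -0.03 and -0.09 in Duoxa-/- pools, against -0.07, 0.02 and 0.02 in wt pools, with 4 of 6 higher. Plasma cell markers averaged 0.21, -0.02 and -0.07 in Duoxa-/- pools, against -0.27, 0.16 and -0.00015 in wt pools, with 7 of 8 higher by mean, but 8, 0 and 3 of 8 higher within cages 1, 2 and 3. Goblet cell markers were higher in 3 of 7 genes. Paneth cell markers, higher in 2 of 6, averaged -0.03, 0.29 and -0.33 in Duoxa-/- pools, against 0.10, 0.11 and -0.14 in wt pools. Their average was highest in cage 2 and lowest in cage 3 in both genotypes. Among the wt pools, the average of the cell cycle genes was instead lowest in cage 1. Of these 6 genes, 3 had an unadjusted F-test cage p under 0.05, beside 6.21% of all genes.

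**Figure D5:**
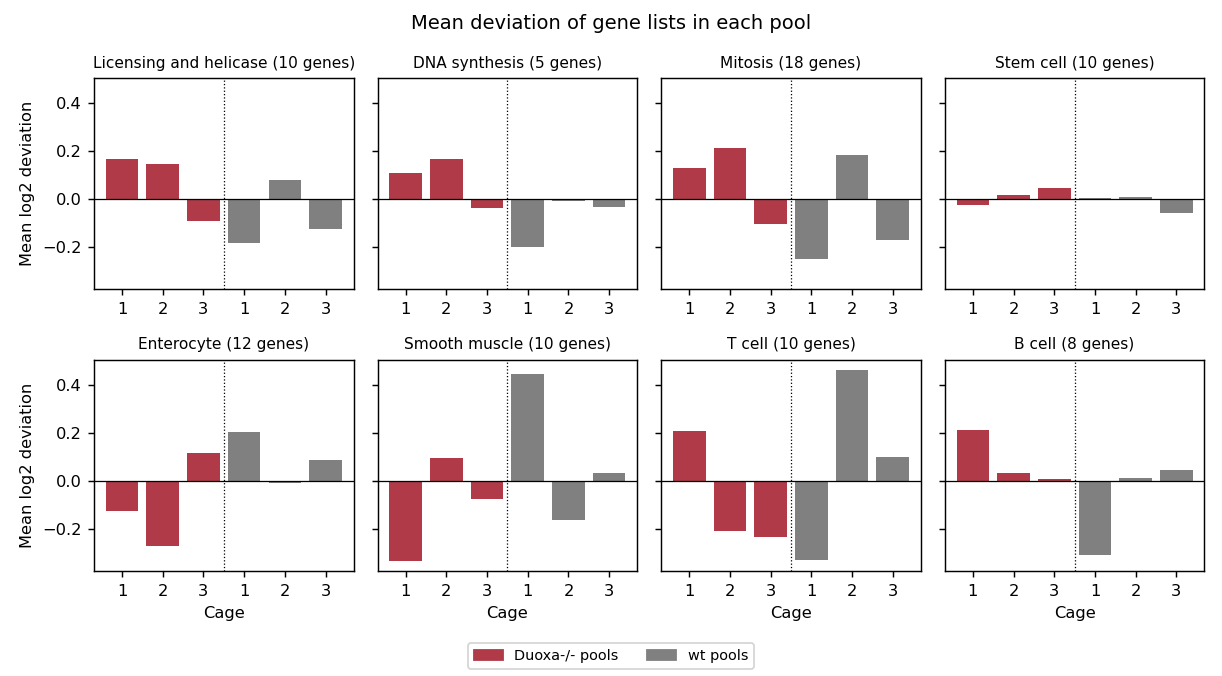
Bars give the average log2 deviation of 3 roles of cell cycle genes and of 5 marker lists in each pool, by cage, each gene centred on its mean over the 6 pools, with Duoxa-/- pools left of wt pools. Mitotic genes and enterocyte markers take nearly opposite orders of the pools, and smooth muscle markers are highest and cell cycle genes lowest in the wt pool of cage 1. Both patterns were chosen after the values were seen.

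Several probe sets measured most genes, and they mostly agreed in direction. The 35 genes had 76 probe sets, of which 67 read higher on average in Duoxa-/-. Of 58 probe sets at or above the median of all, 56 were higher, and of 18 dimmer ones, 11. In 23 genes with more than 1 probe set, all were higher in 15.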

How the data were processed

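The 6 arrays measured total ileal RNA, labelled with biotin by in vitro transcription according to the labels' protocols. The deposited values are log2 probe set summaries made by the authors; the submitters' processing notes name RMA and affy. The sources used here give no versions, settings or genome build. RMA equalises arrays and compresses differences of dim probe sets. Of 45037 probe sets without controls, the platform annotation gave a single symbol to 34945, several to 932 and none to 9160, and 34741 matched RefSeq of assembly GRCm38.p6, with 0 symbols changed. The highest probe set by mean stood for each of 18193 genes. Raw scans were not used. Precision is limited by the number of arrays.

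All differences were tested with limma 3.58.1 under R 4.3.3 (linear model with empirical Bayes, two-sided, threshold 0.05 after Benjamini-Hochberg adjustment over all genes), for genotype without a cage term and for cage with genotype in the fit. Confidence intervals are limma's 95% intervals, unadjusted. Tables used Python 3.11.15 and pandas 2.3.3, and figures matplotlib 3.10.9. The fits were tested on simulated data with known differences.

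The genes and lists (7 pathway and 9 cell type lists, 240 of 254 entries measured, 3 under a newer symbol) were chosen with earlier results of these data known, so no p is given over a list. Values in every pool are given for the 4 genes with the smallest p and the gene with the highest mean in licensing, DNA synthesis and mitosis, for both cyclin E genes, for the 5 genes with the smallest cage p, and for some of the 3 genes with the smallest p in each pathway list; Ccna2, Lgr5, Anpep, Btg2 and Cdkn2a were added after their values were seen. Other genes of the group are described by their differences.

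The series' design text states that each cage was a litter, so pools of 1 cage are paired. Deviations of same-cage pools from their group means correlated across genes at -0.18, 0.16 and 0.34 in cages 1 to 3, and those of different cages at -0.44 to 0.40. The genotype fit was repeated under 18 alternatives.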

Additional observations from a re-analysis of the deposited data

How the results depend on the processing

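Under 18 alternatives of the genotype fit (other choices of probe set, filter, scaling, block, weights or moderation, and leaving out pools or cages), limma called 0 of the 35 genes in each, and the cage test called 0 of them under each of its alternatives. With cage as a replicate block, limma called 0 of the 35 genes and 0 of all genes and left the median at 0.15. Over all genes 1 differed between genotypes without the wt pool of cage 3 and 1 without cage 3, and 0 otherwise. Leaving out 1 pool moved the median of the 35 genes between 0.079 and 0.28, of the licensing genes between 0.077 and 0.25 and of the mitotic genes between 0.077 and 0.31; without cage 1 these were 0.057, 0.027 and 0.041. Between 25 and 35 of the 35 genes were higher in Duoxa-/-.

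Licensing minus mitotic, -0.0088, turned sign with the mean of all probe sets (0.00026), the probe set of largest variance (0.028), no cross-hybridising probe sets (0.0025), no cage 1 (0.00097) and no cage 3 (0.0046), and ran from -0.063 to 0.023 when 1 pool was left out. The cage test called 2 genes, but 0 with the mean of probe sets, without dim genes, after quantile normalization or without a genotype term, 4 after median centring, 21 with trend and robust moderation, and 0 to 53 when 1 pool was left out, an alternative added after the data were seen (53 and 30 without the Duoxa-/- and the wt pool of cage 1, 22 without the wt pool of cage 3, 0 without either pool of cage 2).

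Of 628 values of single genes under the alternatives, 34 in 13 genes turned sign, none of them past the threshold. Without cage 1 these were Mcm2 (-0.025), Mcm3 (-0.0025), Mcm5 (-0.022), Mcm6 (-0.051), Mcm7 (-0.0065), Tk1 (-0.00075), Cdc20 (-0.0027) and Tpx2 (-0.039). Without cage 2 they were Tyms (-0.11), Ccne2 (-0.10), Ccna2 (0.057) and Nusap1 (0.13), and without cage 3 Ccna2 (0.035). The mean of probe sets turned Ccna2 (0.081), Tpx2 (-0.023) and Nusap1 (0.10), the probe set of largest variance Ccna2 (0.16), and array weights Tyms (-0.00036), Ccna2 (0.047) and Nusap1 (0.017). With 1 pool left out, Ccna2 ran from -0.073 to 0.11, Ccne2 from -0.035 to 0.17, Mcm2 from -0.032 to 0.11, Mcm6 from -0.0044 to 0.18, Nusap1 from -0.11 to 0.15, Tk1 from -0.022 to 0.12, Tpx2 from -0.0089 to 0.35, Tyms from -0.078 to 0.23 and Ube2c from -0.071 to 0.16. The cause of these changes was not tested. With 3 pools per genotype, the median SE of a gene, 0.12, was close to the median difference, 0.15.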
